A study of Mus musculus with 4 samples.

Results

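The cells described here are neutrophils from mouse brain tumours that carried more UMIs of Mmp9, Cxcr2 and Csf1 than of F3, Hcar2 and Ccl4. UMIs (unique molecular identifiers) count captured RNA molecules. Of 16289 barcodes, 13569 had at least 200 genes and at most 10% of their UMIs from mitochondrial genes and were kept. A kept cell was gated as a neutrophil when S100a8 and S100a9 made up at least 1% of its UMIs, C1qa, C1qb and C1qc gave at most 3 UMIs and Cd3e gave 0. A gated cell became a member when Ngp, Camp and Ltf together gave fewer than 3 UMIs and the summed UMIs of Mmp9, Cxcr2 and Csf1 exceeded those of F3, Hcar2 and Ccl4, with ties left out. This rule found 779 members, which are called Mmp9/Cxcr2/Csf1 neutrophils. Members were thus selected on the measured UMIs of 15 genes, and the levels of these genes in the members are given as description only.

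The libraries hold tumour-infiltrating immune cells taken from C57BL/6 mice once their brain tumours gave symptoms. The tumours came from a genetically engineered glioma model and are labelled wtIDH1 or mIDH1 for wild-type and mutant isocitrate dehydrogenase 1, with 2 single-cell RNA libraries per genotype. The labels name no other allele, no treatment and no age, and do not say how the immune cells were isolated. They also do not say whether the libraries of a genotype came from different animals, so every p-value measures the spread between these libraries, which may be technical. The libraries held 20908476 to 29849183 UMIs and 3055 to 3767 kept cells each.

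Neutrophils are short-lived phagocytes that leave the bone marrow after maturing under granulocyte colony-stimulating factor (G-CSF), whose receptor is encoded by Csf3r. Mature cells carry the chemokine receptor Cxcr2, which draws them out of the marrow toward CXC chemokines, and store the matrix-degrading protease Mmp9 in granules. In tumours they can release interleukin-1 and chemokines, and some states restrain T cells.

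The libraries wtIDH1 replicate 1 and 2 gave 31 and 70 members, and mIDH1 replicate 1 and 2 gave 205 and 473. Their UMIs summed to 72395, 118274, 548124 and 1292854, and the median member held 1878, 1546, 2313 and 2463 UMIs. The wtIDH1 sums were thus much smaller, and single cells weighed more in them: the deepest member held 19.3 and 7.06% of the UMIs in wtIDH1 and 6.59 and 1.39% in mIDH1. Levels below are in CPM, the UMIs of a gene per 1000000 UMIs of the members of 1 library. No cell barcode was a member in 2 libraries, although any pair of libraries shared 6 to 25 barcodes.

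Cxcr2 was read in 93.5, 94.3, 84.4 and 94.1% of the members in the library order given above, and Mmp9 in 80.6, 82.9, 80.5 and 77.4%. Csf1, the macrophage growth factor, was read in 25.8, 45.7, 60.5 and 46.9%. All 3 genes were read together in 16.1, 38.6, 39.5 and 31.9% of the members, so most members rested on 1 or 2 of them. Members with no UMI of F3, Hcar2 or Ccl4 made up 58.1 and 52.9% in wtIDH1 and 24.9 and 27.3% in mIDH1. Just inside the rule, 0, 4, 20 and 41 members exceeded by a single UMI. Just outside it, 3, 3, 39 and 50 gated cells were tied and 0, 1, 25 and 58 fell short by a single UMI. Within 0.5 percentage points above the S100a8/S100a9 limit lay 2, 12, 23 and 27 members, and 4, 15, 26 and 23 further cells within 0.5 points below it.

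The label of mature neutrophils was checked with Csf3r, which the rule does not read. Csf3r was found in 30 of 31, 69 of 70, 185 of 205 and 440 of 473 members. Its level was 3578 and 3999 CPM in wtIDH1 and 1907 and 1668 CPM in mIDH1, against 88.2 to 103.5 CPM in the kept cells outside the gate. Members therefore stood above the other cells in every library. Of 16 genes listed as mature neutrophil markers all had UMIs in the members of each library, summing to 9972 to 15624 CPM against 1215 to 1593 CPM outside the gate. They included Retnlg, Il1r2, Mxd1 and Slpi. The same list summed to 7692 to 10942 CPM in the F3/Hcar2/Ccl4 cells described next, and to 42090, 29465, 21652 and 35533 CPM in the 2, 1, 6 and 24 gated cells with 3 or more UMIs of Ngp, Camp and Ltf. It thus marks the members as neutrophils but does not set them apart as the mature ones among the gated cells. Ly6g, the surface antigen that defines mouse neutrophils, was low at 55.3, 8.46, 36.5 and 66.5 CPM (4, 1, 20 and 86 UMIs).

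The F3/Hcar2/Ccl4 neutrophils are the gated cells on the other side of the rule, 17, 24, 504 and 1038 in number. The following differences between the members and these cells are descriptions with no test, since the same UMIs split the cells. The members held more RNA of Hp, the haemoglobin-binding haptoglobin, at 912, 651, 642 and 1161 CPM against 0, 0, 158 and 223 CPM. They also held more of Selplg, the selectin ligand for rolling, at 653 to 938 against 0 to 199 CPM. Itga4, the alpha-4 integrin, stood at 137 to 290 against 0 to 41.6 CPM, and Nfe2, a transcription factor, at 69.6 to 235 against 0 to 23.3 CPM. Lower in the members were Ccl3, a chemokine, at 829 to 1824 against 5714 to 8117 CPM, and Hbegf, a growth factor, at 27.6 to 91.2 against 256 to 476 CPM. Csf1, although part of the rule, did not stand on one side: it was 663, 685, 1153 and 647 CPM in the members and 958, 1395, 847 and 577 CPM in the F3/Hcar2/Ccl4 cells.

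The members took up a larger share of all kept cells in the mIDH1 libraries and a smaller share of the gated neutrophils. Of all kept cells they were 0.989% (exact 95% binomial interval 0.673 to 1.40) and 2.29% (1.79 to 2.89) in wtIDH1, and 5.44% (4.74 to 6.21) and 13.1% (12.01 to 14.2) in mIDH1. The groups did not overlap, with means of 1.64 ± 0.921% and 9.27 ± 5.41% (SD, n = 2). The difference of 7.63 percentage points, or a ratio of 5.65, had a two-sided exact permutation p of 0.333, the smallest that 2 libraries against 2 can give. The intervals cover counting error only, and the spread between the mIDH1 libraries was far wider than they are. Without mIDH1 replicate 2 the difference was 3.80 points, a ratio of 3.32.

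Within the gated neutrophils, which numbered 53, 98, 754 and 1585, the members made up 58.5% (44.1 to 71.9) and 71.4% (61.4 to 80.1) in wtIDH1 and 27.2% (24.0 to 30.5) and 29.8% (27.6 to 32.2) in mIDH1. The difference was -36.4 percentage points (exact permutation p 0.333), and the F3/Hcar2/Ccl4 cells made up most of the rest. This second share depended on the gate. With 2 or more Csf3r UMIs in place of the S100a8/S100a9 limit, an alternative chosen after seeing the data, it was 23.2 and 57.5% in wtIDH1 and 31.6 and 38.1% in mIDH1. The groups then overlapped, with a difference of -5.55 points (exact permutation p 1). The share of all kept cells kept its order under that gate, at 1.66, 3.63, 5.81 and 12.8%. Cells with S100a8 and S100a9 under 0.5% but at least 5 UMIs of Mmp9, Cxcr2 and Csf1 numbered 24, 34, 81 and 56, which is large against the 31 and 70 members of wtIDH1. S100a8 itself stood at 114 and 115 CPM outside the gate in wtIDH1 and at 736 and 1043 CPM in mIDH1. Its part in the shares was not tested.

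**Figure D1:**
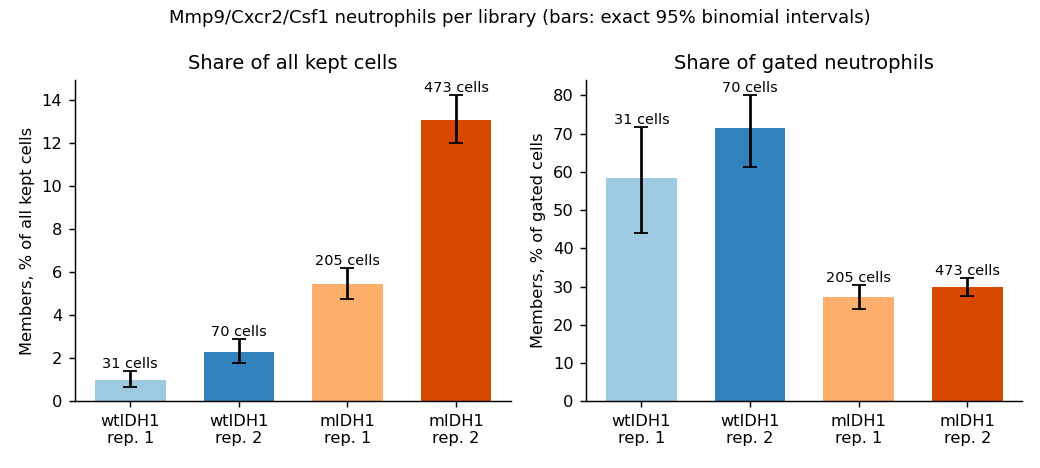
Mmp9/Cxcr2/Csf1 neutrophils as a percentage of all kept cells (left) and of the S100a8/S100a9-gated neutrophils (right), 1 bar per library with exact 95% binomial intervals and the number of members above it. Left, the mIDH1 libraries at 5.44 and 13.1% lie above the wtIDH1 libraries at 0.989 and 2.29%; right, the order is the other way round, at 27.2 and 29.8% against 58.5 and 71.4%.

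The members of mIDH1 tumours were then compared with those of wtIDH1 tumours gene by gene, with the UMIs summed per library. Of 4100 tested genes outside the rule, Saa3 rose in mIDH1 and none fell at an adjusted p of 0.05 (0.0244% of the tested genes called, edgeR quasi-likelihood test with Benjamini-Hochberg adjustment). An unadjusted p below 0.05 was found for 380 genes with higher (9.27%) and 245 genes with lower values (5.98%) in mIDH1. By DESeq2 32 genes passed, and with a term for the replicate number 5. Both mIDH1 libraries were above both wtIDH1 libraries for 676 genes (16.5%) and below both for 1286 genes (31.4%). The log2 fold changes below are mIDH1 minus wtIDH1 with their standard errors, and the median over the tested genes was 0.02. With library totals in place of the TMM scaling that median moved to -0.23 and 49 genes passed, 23 higher and 26 lower.

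A few very large cells bore on this count. Without the members above 3 times the median UMIs of their library, which numbered 1, 1, 5 and 7, 51 of 3687 tested genes passed, or 1.38% (edgeR, adjusted p below 0.05), 39 higher and 12 lower in mIDH1. This alternative was chosen after seeing the data, and Saa3 was among the 51. The values by list below give the test on all members first and this count second. The 1.38% is the share to set beside every count given without the largest cells. With all members, 2095 of the 4100 tested genes had positive values (51.1%) and 2005 negative ones. "Higher" and "lower" describe values, whereas a rise or a fall is stated for genes that passed.

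Saa3 encodes serum amyloid A3, an acute phase protein made outside the liver that attracts neutrophils. It gave 0 UMIs in both wtIDH1 libraries and 134 and 439 UMIs in the mIDH1 libraries, or 0, 0, 244 and 340 CPM. The adjusted p was 0.00813 (edgeR quasi-likelihood, Benjamini-Hochberg). Against a floor of 3 UMIs per wtIDH1 library, 33.4 CPM on average, Saa3 was at least 8.74-fold higher in mIDH1. The UMIs came from 33 of 205 and 57 of 473 members, the richest of which held 23.9 and 11.2% of them. Saa3 passed in 12 of 14 alternatives and in all 4 fits that left out a library. It missed the threshold when S100a8 and S100a9 had to reach 2% of the UMIs (adjusted p 0.145) and at 5% or less mitochondrial UMIs (0.105), by edgeR. Saa3 was also higher in mIDH1 in cells that are not members. Kept cells outside the gate held 41.4 and 20.4 CPM in wtIDH1 and 302 and 205 CPM in mIDH1, and F3/Hcar2/Ccl4 cells 0, 63.4, 290 and 158 CPM. The part of RNA from other cells in the Saa3 values was not tested.

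Saa3 lies on chromosome 7 on the minus strand (chr7:46711998-46715700, GENCODE M21 on mm10). The 250 bases before the start in the RefSeq promoter table are shown because it is the gene that passed the test. The GENCODE start lies inside this window, near its 3′ end. The sequence is from RefSeq (GRCm38.p6, chr7:46715677-46715926, minus strand), with matches of TTNNGNAA, a loose form of the motif bound by C/EBP factors, in capitals.
Saa3: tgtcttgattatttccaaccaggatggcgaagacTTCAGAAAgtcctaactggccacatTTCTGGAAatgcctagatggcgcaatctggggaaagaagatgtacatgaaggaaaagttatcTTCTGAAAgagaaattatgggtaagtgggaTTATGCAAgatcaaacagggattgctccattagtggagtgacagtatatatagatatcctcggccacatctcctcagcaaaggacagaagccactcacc
The motif was searched on both strands and found 4 times, and 36.8% of 32851 promoters of the same length held it at least once. TTCNNNGAA, a form of the STAT motif searched on both strands and held by 7.02% of promoters, does not occur in this window. A match is a description of the letters, not evidence of binding.

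The stefin A genes, which encode small inhibitors of cysteine proteases and lie side by side on chromosome 16, were higher in the members of mIDH1 tumours. Of 5 tested genes in the stefin list none passed. The list counts Cstb among them, which encodes stefin B and is not one of these stefin A genes. Cstb had a log2 fold change of 0.46 (adjusted p 0.659, DESeq2). An unadjusted p below 0.05 (edgeR) with higher values in mIDH1 was found for 4 of the 5 genes, against 9.27% of all tested genes. The median log2 fold change was 2.68, or 1.79 with the gene at 0 in wtIDH1 held at its bound, against 0.02 over all tested genes. The median was 1.34 without mIDH1 replicate 1 and 1.27 after thinning to 1000 UMIs per cell, but each covers only Stfa2l1 and Cstb. After thinning these 2 genes had values of 1.81 and 0.73. Neither median is therefore comparable with that of all 5 genes. Without the largest cells 3 of 5 rose, namely BC100530, Stfa1 and Stfa2l1, against 1.38% of all tested genes called in that fit. Stfa2l1 stood at 511 and 423 CPM in wtIDH1 and 892 and 1695 CPM in mIDH1, with no overlap (1.79 ± 0.43, adjusted p 0.0948, edgeR). Stfa1 had a single UMI in each wtIDH1 library and 116 and 102 UMIs in mIDH1, a ratio of 11.3 with a counting interval of 3.09 to 93.8. That interval covers counting error only, not the spread between cells or libraries. BC100530, another stefin A gene, was at 0 in wtIDH1 and at 98.5 and 62.7 CPM in mIDH1, at least 2.41-fold higher than a floor of 3 UMIs per library. In mIDH1 replicate 1, however, 1 cell held 81.5% of the BC100530 UMIs. These genes are near-identical copies, so the counting may have split or dropped reads between them. Stfa2l1 was about as high in the F3/Hcar2/Ccl4 cells, at 405, 507, 951 and 1500 CPM, and low outside the gate, at 5.44, 4.35, 40.5 and 44.2 CPM.

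The promoters of the stefin A genes are shown because these genes were higher together. The 3 sequences are from RefSeq (GRCm38.p6), each 250 bases before the start in the RefSeq table, for Stfa1 at chr16:36276898-36277147 (plus strand), Stfa2 at chr16:36408364-36408613 (minus strand) and Stfa2l1 at chr16:36156561-36156810 (plus strand). The GENCODE starts of Stfa1 and Stfa2 lie inside these windows, and that of Stfa2l1 directly after its window. Capitals mark the longest run that the 3 share.
Stfa1: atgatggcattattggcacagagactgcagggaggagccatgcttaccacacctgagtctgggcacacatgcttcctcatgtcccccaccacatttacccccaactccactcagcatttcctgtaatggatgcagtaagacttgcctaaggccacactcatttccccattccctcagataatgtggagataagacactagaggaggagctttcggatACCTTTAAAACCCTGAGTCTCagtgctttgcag
Stfa2: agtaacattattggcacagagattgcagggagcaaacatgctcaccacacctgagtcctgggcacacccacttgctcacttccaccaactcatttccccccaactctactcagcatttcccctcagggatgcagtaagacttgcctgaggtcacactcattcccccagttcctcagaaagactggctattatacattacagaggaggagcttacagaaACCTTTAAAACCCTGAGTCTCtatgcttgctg
Stfa2l1: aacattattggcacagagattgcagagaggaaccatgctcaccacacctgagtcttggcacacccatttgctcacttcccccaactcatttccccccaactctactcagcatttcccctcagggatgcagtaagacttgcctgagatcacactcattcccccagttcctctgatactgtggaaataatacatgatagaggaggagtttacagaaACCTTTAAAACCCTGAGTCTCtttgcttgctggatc
The shared run is 21 bases long and occurs in 3 of the 32851 promoters. Identity between the 3 windows was 80.9 to 89.4%, and each held TTNNGNAA once.

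Secreted signals of the members were mostly higher in mIDH1 without passing the test. Of 17 tested cytokine and chemokine genes none passed, and the median was 0.91. Positive values were found for 14, against 51.1% of all tested genes. An unadjusted p below 0.05 (edgeR) was found for 7 higher genes and 1 lower one, against 9.27 and 5.98% of all tested genes. Both mIDH1 libraries lay above both wtIDH1 libraries for 8 genes and below both for 2, against 16.5 and 31.4% of all tested genes. Cxcl2, a neutrophil-attracting ligand of Cxcr2, was read at 6768 and 7212 CPM in wtIDH1 and 10359 and 16106 CPM in mIDH1 (1.22 ± 0.44, adjusted p 0.203, edgeR). Il1b, the inflammatory cytokine interleukin-1 beta, was read at 5083, 5403, 6588 and 9508 CPM (0.91 ± 0.42, adjusted p 0.318). Both genes had separate libraries with a wide gap between the mIDH1 replicates.

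Il1a, the related interleukin-1 alpha, was low at 27.6, 33.8, 150 and 87.4 CPM (2.11 ± 0.54, adjusted p 0.1001, edgeR). Ccl3, a chemokine of activated myeloid cells, was read at 829, 862, 1824 and 1658 CPM (1.29 ± 0.34, adjusted p 0.111). The interleukin-1 receptor antagonist Il1rn was lower in mIDH1, at 2431, 2173, 1890 and 1173 CPM (-0.37 ± 0.34, adjusted p 0.644), and Tnf overlapped between the genotypes at 41.4, 101.5, 117 and 74.3 CPM. Cxcl16, a chemokine of macrophages and dendritic cells, was lower in mIDH1, at 262, 50.7, 47.4 and 13.2 CPM (-2.16 ± 0.70, adjusted p 0.162, edgeR). Outside the gate it stood higher, at 547, 494, 210 and 146 CPM, and was also lower in mIDH1. Without the largest cells Cxcl16 fell (-3.24, adjusted p 0.0433), the only one of 16 tested genes of that list to pass.

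**Figure D2:**
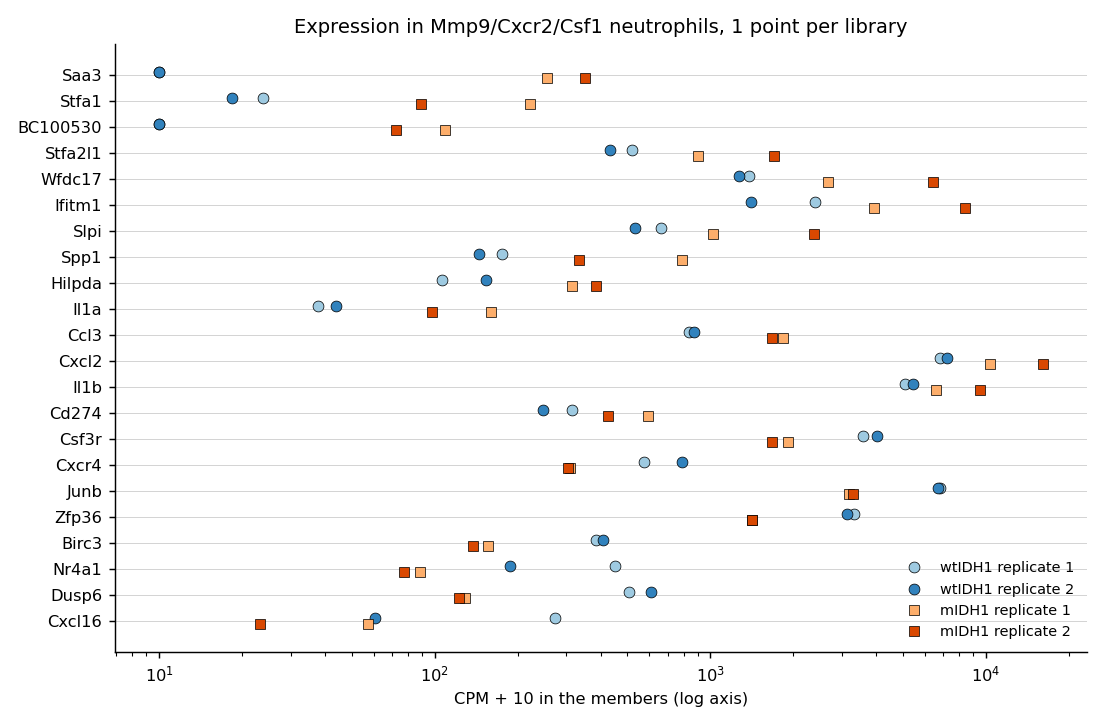
Levels of 22 genes in the members, CPM + 10 on a log axis, with 1 point per library (circles wtIDH1, squares mIDH1). Saa3 and BC100530 lie at the left edge in wtIDH1, where they had 0 UMIs. Genes from Saa3 to Cd274 have both mIDH1 points to the right, and genes from Csf3r to Cxcl16 both to the left.

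Csf3r, the G-CSF receptor, was lower in the members of mIDH1 tumours. The libraries read 3578 and 3999 CPM in wtIDH1 and 1907 and 1668 CPM in mIDH1, which did not overlap (-0.84 ± 0.35, adjusted p 0.269, edgeR). It passed in 1 of 14 alternatives, library totals (-1.09, adjusted p 0.0352), and in none of the 4 fits that left out a library. Under the Csf3r gate, which reads this gene, the value was -0.03 (adjusted p 0.974). In F3/Hcar2/Ccl4 cells Csf3r was 1732, 824, 1220 and 894 CPM, and the genotypes overlapped. The difference in genotype effect between the 2 cell states was -1.13 (adjusted p 0.179). Of 17 tested genes of G-CSF and STAT3 signalling none passed, and the median was 0.08. Socs3, a feedback inhibitor of this pathway, was read at 635, 355, 920 and 1091 CPM (1.32 ± 0.39, adjusted p 0.141). Csf2rb, the shared receptor chain for GM-CSF, was read at 442, 651, 896 and 1015 CPM (1.06 ± 0.36, adjusted p 0.171). Both were higher in mIDH1 with separate libraries, opposite to Csf3r.

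Among receptors and adhesion molecules, Cxcr4, which retains neutrophils in the marrow and marks aged cells, was lower in mIDH1. It read 566 and 778 CPM in wtIDH1 and 299 and 294 CPM in mIDH1 (-0.93 ± 0.33, adjusted p 0.194, edgeR). Ltb4r1, the leukotriene B4 receptor, was higher at 166, 195, 234 and 312 CPM (0.88 ± 0.39, adjusted p 0.305). The integrins Itga4 and Itgal were lower, at 290, 228, 137 and 137 CPM and at 663, 414, 265 and 308 CPM. None of the 14 tested genes of the list passed, and their median was 0.06.

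Granule and host defence genes were mostly higher in mIDH1. None of 10 tested granule and precursor genes passed, and the median was 0.91. Positive values were found for 9, against 51.1% of all tested genes. An unadjusted p below 0.05 (edgeR) was found for 6, all higher, against 9.27% of all tested genes. Without the largest cells the median was 0.36, and without mIDH1 replicate 2 it was 0.43. On the log2(CPM + 10) scale the list had a median ratio of 0.59 in the members. It was larger in the F3/Hcar2/Ccl4 cells (1.61) and outside the gate (0.94). Lcn2, the iron-sequestering lipocalin 2, was read at 608, 397, 567 and 1337 CPM and overlapped. Slpi, a protease inhibitor, was read at 649, 524, 1011 and 2372 CPM (1.86 ± 0.47, adjusted p 0.1001, edgeR). It was also higher in mIDH1 in the F3/Hcar2/Ccl4 cells, at 700, 793, 1203 and 1982 CPM, and outside the gate, at 78.4, 31.9, 187 and 370 CPM. Wfdc21, of the same domain family, was read at 663, 600, 788 and 1955 CPM (1.45 ± 0.47, adjusted p 0.162). For both, mIDH1 replicate 2 stood far above the other libraries. In the NADPH oxidase list, which makes the oxidative burst, none of 7 tested genes passed. Cyba, a membrane subunit, was higher at 635, 499, 812 and 981 CPM (0.95 ± 0.36), whereas Ncf1, a cytosolic subunit, was lower at 608, 888, 471 and 289 CPM (-0.77 ± 0.33).

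Among genes tied to suppressive or tumour-conditioned neutrophils, Wfdc17 and Ifitm1 were high and differed most. Wfdc17, which activated myeloid cells secrete, stood at 1368 and 1260 CPM in wtIDH1 and 2653 and 6401 CPM in mIDH1 (2.11 ± 0.49, adjusted p 0.0944, edgeR). Ifitm1, an interferon-induced membrane protein, stood at 2390, 1395, 3913 and 8379 CPM (2.02 ± 0.50, adjusted p 0.0957). Both had separate libraries. Once the largest cells were left out, both rose (2.14, adjusted p 0.0285, and 2.001, adjusted p 0.0452, edgeR). They were the only 2 of 17 tested genes of the suppressive list to do so, against 1.38% of all tested genes called in that fit. Both were also higher in mIDH1 in the F3/Hcar2/Ccl4 cells and outside the gate. There, outside the gate, Wfdc17 stood at 244, 218, 750 and 761 CPM and Ifitm1 at 996, 835, 1281 and 1125 CPM.

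Cd274, which encodes the checkpoint ligand PD-L1, was read at 304, 237, 586 and 416 CPM (1.13 ± 0.34, adjusted p 0.146, edgeR). Arg1, an arginine-consuming enzyme, overlapped at 193, 338, 540 and 231 CPM (0.68 ± 0.40, adjusted p 0.443). Arg2 at 414, 389, 257 and 306 CPM, Nos2 at 124, 16.9, 56.6 and 120 CPM, Tgfb1 at 304, 169, 208 and 192 CPM and Vegfa at 55.3, 118, 93.0 and 72.7 CPM had adjusted p of 0.588 or more. For Arg1 and these genes no difference was detectable at this depth, and the sign turned under some settings.

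In the list of Siglec-F-type tumour neutrophils none of 11 tested genes passed. Without the largest cells 2 rose, against 1.38% of all tested genes called in that fit. Spp1, the matrix protein osteopontin, was read at 166, 135, 779 and 324 CPM (2.07 ± 0.43, adjusted p 0.0882, edgeR), and 1 cell held 58.3% of its UMIs in wtIDH1 replicate 1. Hilpda, a hypoxia-induced lipid droplet protein, was read at 96.7, 144, 305 and 374 CPM (1.74 ± 0.41, adjusted p 0.0948, edgeR). Both genes were higher in mIDH1 in other cells too. Outside the gate Spp1 stood at 691, 1109, 1870 and 1513 CPM, above the members, and Hilpda at 57.2, 65.6, 251 and 322 CPM. In the F3/Hcar2/Ccl4 cells Spp1 stood at 36.8, 476, 826 and 960 CPM and Hilpda at 700, 919, 1135 and 1534 CPM. Hilpda was the only one of 18 tested hypoxia genes to rise without the largest cells (2.71, adjusted p 0.00879). The hypoxia list had a median of 0.05, or 1.09 without wtIDH1 replicate 2.

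Of 17 tested glycolysis genes 15 were positive, against 51.1% of all tested genes. Their median was 0.57, and none passed. Eno1, the enolase, was read at 124, 304, 520 and 507 CPM (1.46 ± 0.40, adjusted p 0.122, edgeR), Gapdh at 691, 1167, 1936 and 1904 CPM (1.29 ± 0.37, adjusted p 0.127), and Hk2, a hexokinase, at 235, 457, 671 and 743 CPM (1.27 ± 0.38, adjusted p 0.146). Without the largest cells Eno1 and Gapdh rose. Outside the gate the list had a median log2 ratio of 0.46, against 0.37 in the members and -0.02 in the F3/Hcar2/Ccl4 cells, all on the log2(CPM + 10) scale.

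Immediate early genes, which cells induce within minutes of a stimulus, were lower in the members of mIDH1 tumours. Of 21 tested genes 18 were negative, against 2005 of all 4100 tested genes. None passed, and the median was -0.59. Both mIDH1 libraries were below both wtIDH1 libraries for 15 of them, against 31.4% of all tested genes. The lower values were not particular to the members. On the log2 scale used for the granule list above, the immediate early list had a median ratio of -0.82 in the members. This median was also negative in the F3/Hcar2/Ccl4 cells (-0.51) and outside the gate (-0.35). Over all tested genes the medians were -0.18, -0.01 and -0.21 in the same order. Dusp6, a phosphatase that dampens ERK signalling, had 497 and 600 CPM in wtIDH1 and 119 and 112 CPM in mIDH1 (-1.995 ± 0.33, adjusted p 0.0572, edgeR). It passed in 9 of 14 alternatives, and in 1 of the 4 fits that left out a library, that without wtIDH1 replicate 1. Nr4a1, an inducible nuclear receptor, was read at 442, 178, 78.4 and 67.3 CPM (-1.78 ± 0.43, adjusted p 0.0948). Dusp6 and Nr4a1 fell once the largest cells were left out (adjusted p 0.00418 and 0.0308).

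Junb, an AP-1 subunit, was abundant at 6768, 6679, 3174 and 3287 CPM (-0.80 ± 0.37, adjusted p 0.327, edgeR). Zfp36, which destabilizes cytokine mRNA, was read at 3315, 3120, 1403 and 1405 CPM (-0.94 ± 0.35, adjusted p 0.209). For both, the replicates of a genotype lay close together and the genotypes far apart. With library totals they passed (Junb -1.06, adjusted p 0.0325; Zfp36 -1.20, adjusted p 0.0222), and both came closer to 0 under the Csf3r gate (-0.27 and -0.47). The list median was -0.09 under that gate. Dusp6 was lower in mIDH1 also in the F3/Hcar2/Ccl4 cells, at 184, 222, 73.9 and 50.3 CPM, and outside the gate, at 307, 327, 124 and 98.5 CPM. In the NF-kB and Toll-like receptor list none of 19 tested genes passed. Birc3, an NF-kB-induced survival gene, was read at 373, 397, 146 and 128 CPM (-1.25 ± 0.33, adjusted p 0.115).

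**Figure D3:**
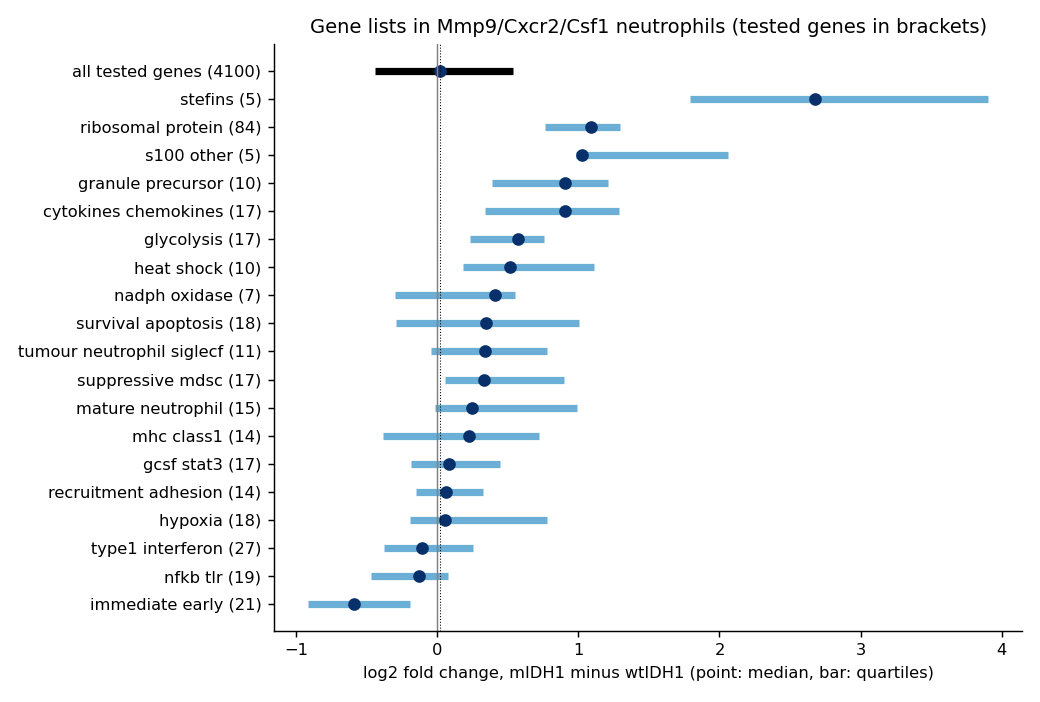
Log2 fold changes (mIDH1 minus wtIDH1) of the gene lists in the members, leaving out the marker lists of other cell types, with the median as a point, the quartiles as a bar and the number of tested genes in brackets. Of the lists drawn, stefins and ribosomal proteins lie farthest to the right (medians 2.68 and 1.09) and immediate early genes farthest to the left (-0.59), beside 0.02 over all 4100 tested genes.

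Interferon-induced genes went both ways. Of 27 tested genes 12 were positive and 15 negative, with a median of -0.11, and none passed. Ifitm3, a restriction factor, was read at 981, 465, 1627 and 2739 CPM (1.92 ± 0.46, adjusted p 0.0948, edgeR), and Zbp1, a sensor of nucleic acid, at 124, 101.5, 272 and 286 CPM (1.59 ± 0.40, adjusted p 0.0972). Both rose once the largest cells were left out. Ifit3b, which shares sequence with Ifit3, was lower at 235, 186, 71.2 and 37.1 CPM (-1.76 ± 0.41, adjusted p 0.0944). Isg15, the ubiquitin-like modifier, overlapped at 898, 507, 790 and 1402 CPM (0.97 ± 0.43, adjusted p 0.305). Irf8, a transcription factor of monocytes and dendritic cells, was low and lower in mIDH1 at 193, 59.2, 38.3 and 37.1 CPM (-1.35 ± 0.55, adjusted p 0.262).

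Of 14 tested MHC class I genes none passed, and the median was 0.23. Psmb8, an immunoproteasome subunit, was higher at 207, 195, 345 and 354 CPM, and H2-Q7, a non-classical class I gene with close copies, lower at 180, 118, 69.3 and 25.5 CPM. Of 18 tested survival and apoptosis genes none passed, with a median of 0.34. Casp8, which starts death receptor signalling, was read at 41.4, 33.8, 96.7 and 97.5 CPM (1.66 ± 0.53, adjusted p 0.156, edgeR), and Bcl2a1b, an anti-apoptotic gene with near-identical copies, at 96.7, 194, 359 and 248 CPM (1.22 ± 0.39, adjusted p 0.156). S100a10, a calcium-binding protein not read by the rule, was at 0 UMIs in wtIDH1 and at 83.9 and 71.9 CPM in mIDH1, at least 2.33-fold higher, whereas outside the gate it was abundant at a mean of 190 CPM in wtIDH1 and 624 CPM in mIDH1.

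The inducible heat shock genes Hspa1a and Hspa1b, chaperones that mark cell stress and share most of their sequence, were nearly absent from wtIDH1 members. Hspa1a had 0, 1, 191 and 141 UMIs, a ratio of 34.4 with a counting interval of 6.13 to 1362, and Hspa1b 0, 0, 300 and 105 UMIs, at least 9.41-fold higher (adjusted p 0.0572 and 0.0882, edgeR). In mIDH1 replicate 1 a single cell held 94.8% of the Hspa1a and 87.0% of the Hspa1b UMIs. Both values there rest on that cell. The counting interval treats every UMI as independent, so it covers neither the spread between cells nor that between libraries. The bound for Hspa1b includes that cell. The other 8 tested genes of the list included Dnaja1, a co-chaperone, at 124, 144, 206 and 229 CPM (0.96 ± 0.39, adjusted p 0.260).

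Ribosomal protein genes, a list added after seeing the data, were higher in mIDH1 almost throughout. Of 84 tested genes none passed, and the median was 1.09. Positive values were found for 81, against 51.1% of all tested genes. An unadjusted p below 0.05 (edgeR) was found for 57, all higher, against 9.27% of all tested genes. Without the largest cells 7 of 80 rose, against 1.38% of all tested genes called in that fit. They summed to 3.56 and 3.22% of the members' UMIs in wtIDH1 and 6.16 and 4.64% in mIDH1. Outside the gate the shares were 10.2, 10.6, 15.6 and 19.5%, so they moved the same way in all cells of these libraries. Rpl32 was read at 180, 169, 660 and 429 CPM (1.87 ± 0.36, adjusted p 0.0882, edgeR). The share of mitochondrial UMIs in the members overlapped between the genotypes, at 3.62, 3.88, 3.85 and 3.42%. That of Malat1, a nuclear RNA, was slightly lower in both mIDH1 libraries, at 3.83, 4.03, 3.72 and 3.77%.

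**Figure D4:**
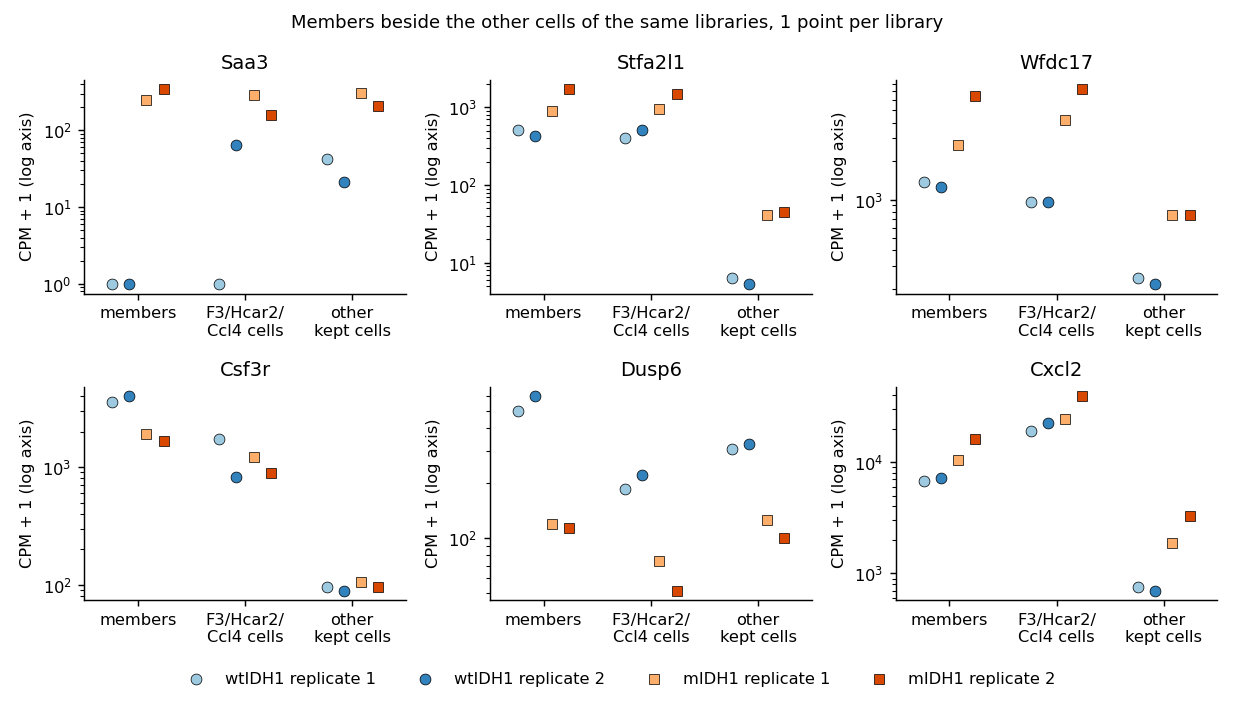
Levels of 6 genes in the members, in the F3/Hcar2/Ccl4 cells and in the kept cells outside the gate, CPM + 1 on a log axis, 1 point per library. For Saa3, Stfa2l1, Wfdc17, Dusp6 and Cxcl2 the libraries of the genotypes separate the same way in all 3 groups of cells. For Csf3r they overlap in the F3/Hcar2/Ccl4 cells (824 to 1732 CPM) and outside the gate.

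Markers of other cell types were read in the members at low levels that varied with single cells. All 15 macrophage markers were read in at least 1 library, Mrc1 being at 0 in wtIDH1 replicate 1 and Ms4a7 at 0 in a library of each genotype. They summed to 3743 and 2308 CPM in wtIDH1 and 3829 and 2816 CPM in mIDH1, which overlapped. In wtIDH1 replicate 1, however, 1 cell held 57.9% of them. Without the richest cell of each library the sums were 1950 and 2218 CPM in wtIDH1 and 3408 and 2578 CPM in mIDH1, higher in both mIDH1 libraries. The genes did not move together: of 11 tested 5 were positive and 6 negative, with a median of -0.14. C1qa and C1qc, which the rule limits and the list leaves out, were lower in both mIDH1 libraries. They read 138, 237, 93.0 and 34.0 CPM and 82.9, 152, 49.3 and 22.4 CPM. C1qb overlapped at 96.7, 50.7, 69.3 and 27.1 CPM. Cd68, a lysosomal marker of macrophages, rose once the largest cells were left out, from 17.1 and 45.5 CPM to 155 and 129 CPM (2.25, adjusted p 0.0452, edgeR). The 8 monocyte markers, of which 6 to 8 were read per library, summed to 2086, 194, 544 and 391 CPM, and 1 cell of 13941 UMIs held 79.5% of them in wtIDH1 replicate 1. The 8 erythroid and platelet markers summed to 69.1, 5775, 62.0 and 82.8 CPM, and 1 cell held 98.8% of their UMIs in wtIDH1 replicate 2. Alas2 and Ppbp of that list were at 0 throughout. The lists of microglia (112 to 330 CPM), T and natural killer cells (45.6 to 428 CPM), B cells (13.9 to 108 CPM), dendritic cells (44.9 to 152 CPM), basophils and mast cells (0 to 27.1 CPM) and tumour and glial cells (553 to 1031 CPM) were low. The number of genes read was 4 to 7 of 10 for microglia, 6 to 10 of 13 for T and natural killer cells, 1 to 8 of 8 for B cells, 2 to 4 of 8 for dendritic cells, 0 to 6 of 7 for basophils and mast cells and 2 to 5 of 9 for tumour and glial cells. Defining genes at 0 in every library were Cd4 and Ncr1 for T and natural killer cells, Flt3 and Cd209a for dendritic cells, and Sox2, Olig1, Olig2 and Aqp4 for tumour and glial cells. Tmem119, a microglial gene, was at 0 in 3 of 4 libraries. The tumour and glial sum was higher in mIDH1, at 1023 and 1031 CPM against 553 and 710 CPM. Only 2 genes of that list were tested, and they went opposite ways. With library totals in place of TMM scaling, Cst3 was higher in mIDH1 (log2 fold change 0.92) and Mbp lower (-0.90). The part of these markers in the results was not tested.

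The genotype effect in the members was set against that in the F3/Hcar2/Ccl4 cells through an interaction term, in a fit that held the library constant. Of 4960 tested genes 21 passed (0.423% called, edgeR adjusted p below 0.05), 2 with a positive and 19 with a negative difference (the genotype effect in the members minus that in the F3/Hcar2/Ccl4 cells). The median difference was -0.31, and the wtIDH1 sums of the F3/Hcar2/Ccl4 cells held 27143 and 31540 UMIs. Thbs1, the matrix protein thrombospondin 1, was read at 442, 626, 347 and 221 CPM in the members and at 2947, 3234, 396 and 397 CPM in the F3/Hcar2/Ccl4 cells. It was thus low in the members of every library, and in the F3/Hcar2/Ccl4 cells high only in wtIDH1 (difference 1.72 ± 0.37, adjusted p 0.00164). Txnip, a glucose-sensitive regulator of redox balance, was read at 843, 981, 536 and 411 CPM against 921, 1712, 334 and 93.8 CPM (1.64 ± 0.38, adjusted p 0.00632).

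Negative differences were found for Ifit1 at 1229, 643, 443 and 295 CPM against 626, 222, 908 and 397 CPM (-2.20 ± 0.43, adjusted p 0.000367, edgeR), and for Cxcl10, an interferon-induced chemokine for lymphocytes, at 580, 254, 755 and 904 CPM against 36.8, 0, 874 and 422 CPM (-4.40 ± 0.93, adjusted p 0.00138). Arg1 (-2.58 ± 0.61, adjusted p 0.00826) and S100a11 (-1.73 ± 0.46, adjusted p 0.0421) also passed, although in the F3/Hcar2/Ccl4 cells of wtIDH1 Arg1 had 4 and 2 UMIs and S100a11 8 and 9. Of 16 alternatives Ifit1 kept its call in 14, Txnip and Cxcl10 in 10, Thbs1 in 9, Arg1 in 8 and S100a11 in 5. Without wtIDH1 replicate 1 all 6 calls were lost (adjusted p 0.0883 to 0.690, edgeR). Without wtIDH1 replicate 2 or mIDH1 replicate 2 those of Txnip, Arg1 and S100a11 were lost (0.123 to 0.9995), and without mIDH1 replicate 1 those of Thbs1, Ifit1, Cxcl10 and S100a11 (0.248 to 0.959). Under the Csf3r gate, which called 124 genes, the differences of Thbs1 and Cxcl10 turned sign (-1.22 and 0.18), and that of Txnip turned with S100a8 and S100a9 at 2% or more (-0.13). The haemoglobin genes Hbb-bs, Hba-a1 and Hba-a2 and the granzyme gene Gzma also passed, with UMIs held largely by few cells. Among the members, 1 of wtIDH1 replicate 2 held 495 of 496 Hbb-bs UMIs, and 1 of wtIDH1 replicate 1 held 21 of 23 Gzma UMIs. The F3/Hcar2/Ccl4 cells held 1357 Hbb-bs UMIs in mIDH1 replicate 1 and 519 Gzma UMIs in mIDH1 replicate 2. Of the erythroid and platelet UMIs of these cells in mIDH1 replicate 1, 1 cell held 78.6%. Saa3 (adjusted p 0.366), Stfa2l1 (0.925) and Wfdc17 (0.202) did not pass, which does not show that their effects were alike. Idh1 and Idh2 themselves, as genes of the host cells, had 1, 4, 10 and 17 and 0, 1, 11 and 4 UMIs in the members and were too low to test.

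**Figure D5:**
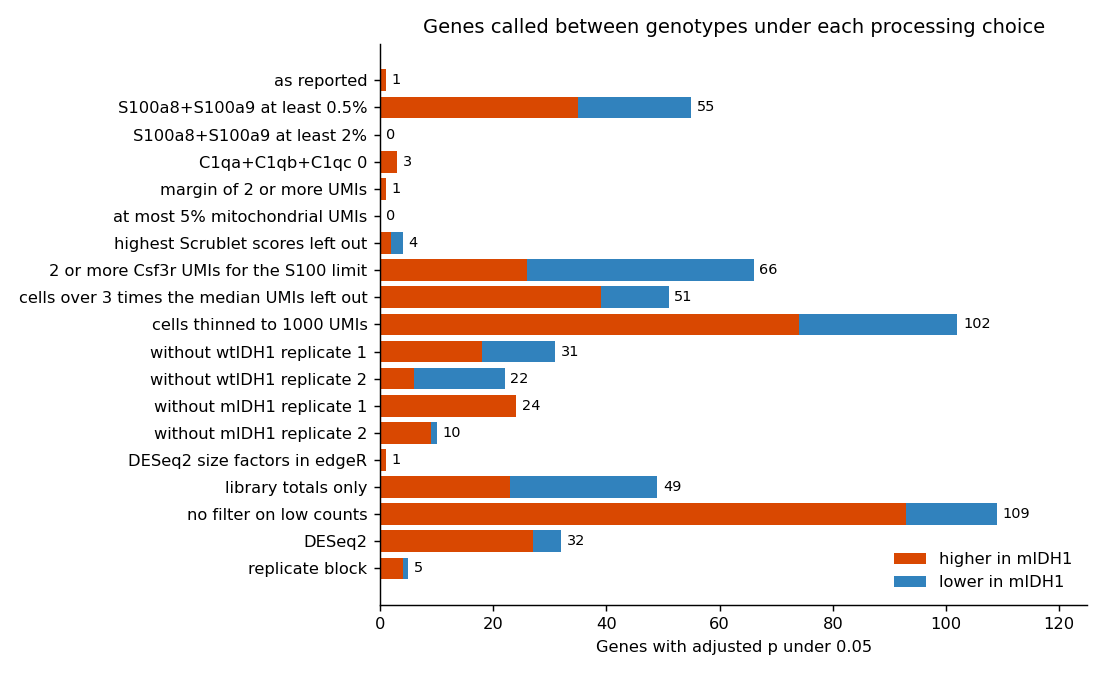
Number of genes with an adjusted p under 0.05 between the genotypes in the members under each processing choice, split by direction. The count is 1 as reported and ranges from 0 to 109.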

How the data were processed

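Immune cells of the tumours were profiled in droplets, with 2 libraries per genotype, and analysed from the deposited matrices of whole-number UMI counts. The authors made these counts with Cell Ranger (3.1 per the submitters' processing notes, 3.0.0 per the file headers) on mm10, and they are not normalized. The depth of a library, 20908476 to 29849183 UMIs, is spread over 3707 to 4708 barcodes, and the member sums of 72395 to 1292854 UMIs set the precision. UMIs of the members were summed per library and tested with edgeR 4.0.16 (quasi-likelihood, TMM scaling, filterByExpr, Benjamini-Hochberg adjustment, threshold 0.05). The 15 rule genes were left out of the calls. Only the 2 genotypes entered the fit, with no covariate, and the interaction was fitted over members and F3/Hcar2/Ccl4 cells with the library as a block. Shares were compared with an exact two-sided permutation test, and intervals are Clopper-Pearson at 95%. Differences between cell states were ranked on the log2(CPM + 10) scale. The fitting was tested on simulated data.

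The members and gene lists were chosen with earlier results of these data known. Named genes are those past the threshold, up to 4 of each list with the lowest p, a set of genes fixed for their role, up to 5 per direction of the interaction with the lowest p, and, against the F3/Hcar2/Ccl4 cells, up to 10 per direction with the largest difference of the same sign in every library at a mean of at least 50 CPM. Malat1 and the genes in the closing observations were named after their values were seen, and some genes that the rule reaches are not reported here. Doublets were called with Scrublet (scanpy 1.11.5), which marked 1 to 3 barcodes per library and so did not work by that threshold, and the highest scores were left out as an alternative. Other alternatives varied the gate, margin, mitochondrial limit, depth, scaling, filter and tool (DESeq2 1.42.0), and left out each library. The Csf3r gate and leaving out the largest cells were chosen after seeing the data. Genes with near-identical copies (stefin A, Hspa1a and Hspa1b, haemoglobin, Ifit3b, H2-Q7, Bcl2a1b) are uncertain, since the counting may split their reads.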

Additional observations from a re-analysis of the deposited data

Results flagged for a closer look

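Each of the following differences was singled out because the genotype effect in the members (mIDH1 minus wtIDH1, log2) was tested against that in the F3/Hcar2/Ccl4 cells and passed (edgeR interaction, Benjamini-Hochberg adjusted p below 0.05). The difference, members minus F3/Hcar2/Ccl4 cells, was positive for Thbs1, at 1.72 (adjusted p 0.00164), and for Txnip, at 1.64 (0.00632): both genes were lower in mIDH1 in both cell states, and less so in the members. It was negative for Ifit1, at -2.20 (adjusted p 0.000367), for Cxcl10, at -4.40 (0.00138), for Arg1, at -2.58 (0.00826), and for S100a11, at -1.73 (0.0421). The call was kept in 14 of 16 alternatives for Ifit1, in 10 for Txnip and Cxcl10, in 9 for Thbs1, in 8 for Arg1 and in 5 for S100a11, and for none of the 6 without wtIDH1 replicate 1. In the F3/Hcar2/Ccl4 cells of wtIDH1, Cxcl10 had 1 and 0 UMIs, Arg1 4 and 2 and S100a11 8 and 9, so these sizes are not well set. The values of Hbb-bs (-11.32), Hba-a1 (-14.41), Hba-a2 (-13.60) and Gzma (-13.60) were fitted against sums at or near 0 and give no size. In wtIDH1 replicate 2 a single member held 495 of 496 Hbb-bs UMIs, all 103 Hba-a1 UMIs and all 67 Hba-a2 UMIs, and in wtIDH1 replicate 1 a single member held 21 of 23 Gzma UMIs. The F3/Hcar2/Ccl4 cells of mIDH1 replicate 1 held 1357 Hbb-bs, 1189 Hba-a1 and 748 Hba-a2 UMIs. Those of mIDH1 replicate 2 held 519 Gzma UMIs. Without wtIDH1 replicate 2 the 3 haemoglobin calls were lost (adjusted p 0.606 to 1), and without wtIDH1 replicate 1 or mIDH1 replicate 2 that of Gzma (0.379 and 0.9995). Without mIDH1 replicate 1 that of Hba-a2 was lost (0.336). The causes were not tested.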

How the results depend on the processing

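The members' share of all kept cells stayed higher in mIDH1 under every alternative run, with differences of 3.80 to 11.5 points when single libraries were left out. The share of gated neutrophils stayed lower on average, at -42.9 to -30.0 points when single libraries were left out, but under the Csf3r gate the difference was -5.55 points and the libraries overlapped. The count of changed genes, 1 as reported, was 55 with S100a8 and S100a9 at 0.5% or more, 0 at 2% (532 at an unadjusted p below 0.05), 3 with no C1q UMIs, 0 at 5% mitochondrial UMIs or less (501 unadjusted), 4 without the highest Scrublet scores, 66 under the Csf3r gate, 51 without the largest cells, 102 after thinning to 1000 UMIs per cell, 49 with library totals, 109 with no filter and 32 by DESeq2. Without 1 library it was 10 to 31. The replicate block gave 5, and the numbers are shared names only: deviations of the libraries numbered 1 had a correlation of -0.00526 across genes. The cause of these shifts was not tested. The interaction count, 21, was 4 at S100a8 and S100a9 of 2%, 1 with no C1q UMIs, 41 at the stricter mitochondrial limit, 124 under the Csf3r gate and 7 to 31 without 1 library.

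Signs turned for Tgfb1 (0.06) at 0.5% (-0.10), 5% mitochondrial (-0.12), the Csf3r gate (-0.24) and totals (-0.20). They turned for Arg1 (0.68) at 0.5% (-0.39) and the Csf3r gate (-0.89), for Arg2 (-0.23) at that gate (0.55), and for Vegfa (0.09) with no C1q (-0.38), a margin of 2 UMIs (-0.19), Scrublet (-0.0951), the Csf3r gate (-0.68) and totals (-0.15). Of the interactions, Thbs1 turned at the Csf3r gate (-1.22), Txnip at 2% (-0.13), and Cxcl10 at 0.5% (0.32) and the Csf3r gate (0.18). With 1 library left out Tgfb1 ranged from -0.30 to 0.53, Nos2 from -0.069 to 2.77, Arg2 from -0.52 to 0.021 and Vegfa from -0.25 to 0.87. The wtIDH1 sums, of 31 and 70 cells, limit every gene value.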

Other observations

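Of the 51 genes that passed without the largest cells, several belong to no list described above and are named here after their values were seen (edgeR, adjusted p below 0.05, log2 fold change mIDH1 minus wtIDH1). Cox5b and Cox8a, subunits of cytochrome c oxidase, rose by 2.01 (adjusted p 0.0306) and 1.77 (0.0494), with Cox5b at 85.5 and 72.8 CPM in wtIDH1 and 243 and 277 CPM in mIDH1. Atp5j, an ATP synthase subunit, rose by 1.98 (adjusted p 0.0452). Upp1, uridine phosphorylase, stood at 205 and 182 CPM in wtIDH1 and 439 and 949 CPM in mIDH1 (2.17, adjusted p 0.0306), and Asprv1, an aspartic protease, at 85.5, 127, 309 and 488 CPM (2.14, adjusted p 0.0285). Gng5, a G protein gamma subunit, stood at 205, 300.2, 656 and 999.7 CPM (1.96, adjusted p 0.0285).

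Of the 12 that fell, Rgs2, which shortens G protein signalling, was the most abundant, at 1163 and 1619 CPM in wtIDH1 and 498 and 360.3 CPM in mIDH1 (-1.49, adjusted p 0.0306, edgeR). Notch1, the receptor, stood at 205, 227, 49.0 and 61.3 CPM (-1.67, adjusted p 0.0452), and Dck, deoxycytidine kinase, at 513, 191, 87.3 and 69.6 CPM (-1.84, adjusted p 0.0397). None of these genes passed with all members included.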
